A study of Mus musculus with 11 samples.

Results

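The genes described here are 10 members of the tumour necrosis factor (TNF) pathway and its NF-kB branch: the ligand Tnf, the receptors Tnfrsf1a, Tnfrsf1b and Tnfrsf12a, the adaptor proteins Traf1 and Traf2, the ubiquitin ligase Birc3, the NF-kB subunits Nfkb1 and Relb, and the inhibitor Nfkbia. They were found by matching the RefSeq accession of each array probe to its gene symbol, and all 10 of 10 were measured, among 26082 features (genes or unnamed transcripts) tested on the arrays. Of these features 16067 had a gene symbol. Of the 10, 9 were chosen for what they do, with earlier results of these data known. Traf1 was chosen by its own rise after injury in wild-type mice, so its values in that comparison describe the choice, carry no test and support nothing.

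Right-hemisphere cortex of 22 C57/Bl6J mice, 5 to 7 months old, gave the RNA for 11 Agilent arrays of 2 colours. Every array compared 1 mouse labelled with Cy5 (red) with another labelled with Cy3 (green), and no mouse was on more than 1 of these arrays. Per the design text every sample had 4 hybridisations; any others were not analysed here. Of the 4 groups, WT (n = 6) were wild-type mice without a lesion and WTC (n = 5) wild-type mice with a cryolesion. T (n = 5) were transgenic mice without a lesion and TC (n = 6) transgenic mice after the same cryolesion. The cryolesion is a focal freezing injury, made by 30 s of contact between dry ice and the brain surface, with tissue taken 3 days later. Transgenic mice had the genotype GFA2-tTa/TetO-VP16-CREB, in which a promoter active in astrocytes (the support glia) drives a transactivator that switches on VP16-CREB, in which the viral VP16 domain makes the transcription factor CREB active without a stimulus. Both transgenic groups carried both transgenes and both wild-type groups carried neither, per the labels. The tissue was bulk cortex, so a gene's level there sums over every cell type in it.

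Tumour necrosis factor is a cytokine made mainly by microglia and macrophages in injured brain. It acts through Tnfrsf1a, which carries a death domain, and Tnfrsf1b, which lacks one; Tnfrsf12a binds the related cytokine TWEAK. These receptors recruit TRAF adaptors, with Birc2 and Birc3 as ubiquitin ligases, and the signal reaches the IKK kinases, which mark the inhibitor encoded by Nfkbia for destruction and so free NF-kB dimers to enter the nucleus. In the non-canonical branch, the Relb subunit pairs with the product of Nfkb2. Traf1, Birc3, Nfkbia, Nfkb1 and Relb are textbook NF-kB targets themselves.

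Promoters were looked up because several of these genes moved together and because the transgene encodes a form of CREB. RefSeq promoters of assembly GRCm38.p6 (250 bases before to 50 after the start site) were matched for 8 members; Nfkb1 and Relb had no entry. The windows were searched on both strands for the 10-base kappaB consensus (the NF-kB element), the full cAMP response element TGACGTCA (CRE), its core TGACG, which every full CRE also holds, the AP-1 element TGANTCA and the GC box GGGCGG. Only Nfkbia of the 8 members held the kappaB consensus, which 8.46% of 32851 promoters held. Only Traf2 held the CRE core, with 2 copies, 1 of them past the start site; 20.8% of promoters held it. None of the 8 held a full CRE (1.79% of promoters) or AP-1 (7.81%). The GC box, in 35.7% of promoters, was found in Tnf, Tnfrsf1b, Tnfrsf12a (5 copies), Traf2 and Nfkbia. A match is a string of letters and not evidence of binding. The 250 bases before the start site are shown for Nfkbia and Traf2, which hold these matches, and for Traf1, which holds none. They lie on the minus strand at chr12:55492648-55492897 (Nfkbia), chr2:25546941-25547190 (Traf2) and chr2:34961773-34962022 (Traf1). Capitals mark the kappaB match and the GC box in Nfkbia and the CRE core in Traf2:
Nfkbia: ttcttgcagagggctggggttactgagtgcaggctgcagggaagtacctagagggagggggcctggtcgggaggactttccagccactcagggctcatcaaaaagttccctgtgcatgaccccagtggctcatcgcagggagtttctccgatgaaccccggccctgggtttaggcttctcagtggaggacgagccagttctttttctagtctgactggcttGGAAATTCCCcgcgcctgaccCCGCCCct
Traf2: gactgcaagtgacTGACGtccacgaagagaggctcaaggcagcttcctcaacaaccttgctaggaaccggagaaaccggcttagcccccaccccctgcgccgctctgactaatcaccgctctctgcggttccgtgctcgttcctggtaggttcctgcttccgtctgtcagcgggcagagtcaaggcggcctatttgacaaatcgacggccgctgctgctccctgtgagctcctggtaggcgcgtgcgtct
Traf1: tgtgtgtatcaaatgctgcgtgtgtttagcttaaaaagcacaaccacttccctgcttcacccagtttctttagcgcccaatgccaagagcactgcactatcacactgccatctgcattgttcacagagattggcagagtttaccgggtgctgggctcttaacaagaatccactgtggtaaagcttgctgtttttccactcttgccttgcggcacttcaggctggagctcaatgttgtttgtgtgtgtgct

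Several features of the series bear on the values below. Between 55.4% and 64.4% of the probes in a channel were well above background. Arrays A to F lay on slide 1 and arrays I to M on slide 2, and all 6 WT mice were on slide 1. On arrays I, J and K the labels of the green channel contradict the titles; the groups here are those of the titles. The TC mouse of array I stood apart from the other TC mice in levels given below, although a check for outliers flagged 0 of 40 groups of values. The tissue held its defining markers: the mean log2 level of the neuronal vesicular glutamate transporter gene Slc17a7 was 11.61 ± 0.42 (SD, n = 6) in WT, and that of the astrocyte filament gene Gfap was 11.71 ± 0.64 in WT and 14.94 ± 0.62 (n = 5) in WTC. The microglial gene Aif1 stood at 11.66 ± 0.32 in WT and 13.83 ± 0.69 in WTC.

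Levels below are log2 intensities of a mouse's own channel, after normalization and with the probe's dye effect removed. They compare mice for 1 probe and not 1 gene with another. Differences are log2 ratios, each ± its standard error (SE), fitted by limma to the 11 array ratios, here called the ratio fit. It leaves 7 residual degrees of freedom. A second fit treated the channels of an array as separate values (the separate-channel fit, 17 residual degrees of freedom) and, of the same data, called far more features. Adjusted p-values are two-sided Benjamini-Hochberg values over all features in either fit, and a gene passed at an adjusted p under 0.05.

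The first comparison asked how the pathway stood 3 days after the lesion in wild-type cortex. All 10 members had a higher fitted level in WTC than in WT. Traf1 was chosen for this, and Tnf passed the filter on dim probes only through lesioned mice, so both are left out of the counts. The other 8 had a median log2 ratio of 0.44 against 0.0033 over all features. The receptors Tnfrsf1a, Tnfrsf12a and Tnfrsf1b had the largest ratios beside Traf1, at 3.03-fold, 2.02-fold and 1.87-fold. None of the 8 passed in the ratio fit, where 0.023% of all features passed upward, while 6 of the 8 had an unadjusted p under 0.05, as did 19.6% of all features. In the separate-channel fit 7 of the 8 rose, against 14.3% of all features, and Nfkb1 missed the threshold (adjusted p = 0.0549).

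The ligand gene Tnf was dim. Its probe was well above background in 0 of 6 WT and 0 of 5 T mice but in 5 of 5 WTC and 4 of 6 TC mice. Its level ran from 5.95 to 6.17 in WT (median 6.02) and was 6.38, 6.53, 6.58, 6.86 and 7.18 in WTC. Every WTC mouse was thus above every WT mouse, while the WT signal was not well above background. As a difference of group means, WTC was 1.58-fold higher. This value sets the WTC mean against the higher, on each WT array, of the probe's own value and the lowest signal of any probe well above background. It leaves out the pairing of mice on arrays. The fits, which use the pairing, gave 1.43-fold (ratio fit) and 1.54-fold (separate-channel fit), so 1.58-fold is no lower bound. No test is given, since a probe that lesioned mice alone carried past the filter had to differ.

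Tnfrsf1a, the death-domain receptor, showed the widest gap of the 3 receptors. Its level ran from 9.21 to 9.67 in WT (median 9.53) and was 10.71, 11.21, 11.49, 11.74 and 11.97 in WTC. The lowest WTC mouse was more than 1 log2 unit above the highest WT mouse. The ratio was 1.60 ± 0.34 (adjusted p = 0.0954) in the ratio fit and 3.61-fold (1.85 ± 0.26, adjusted p = 0.000205) when channels were fitted separately. A second probe of the gene gave 0.83 ± 0.20 (adjusted p = 0.111, ratio fit), the same direction with a smaller ratio.

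Tnfrsf1b, the receptor without a death domain, which microglia and other immune cells carry, also separated the groups. It ran from 6.48 to 7.15 in WT (median 6.78) and stood at 7.65, 7.79, 7.89, 8.40 and 9.004 in WTC. The groups did not overlap, and the WTC mice were spread over more than 1 log2 unit. The ratio was 0.90 ± 0.28 (adjusted p = 0.141) and, in the separate-channel fit, 1.22 ± 0.26 (adjusted p = 0.0034).

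Tnfrsf12a, the receptor for TWEAK, overlapped between the groups through 1 mouse on each side. Its level ran from 9.18 to 10.72 in WT (median 10.20) and was 10.69, 11.22, 11.70, 11.71 and 12.39 in WTC. The lowest WTC mouse shared array A with the highest WT mouse. The ratio was 1.01 ± 0.33 (adjusted p = 0.152), and 1.28 ± 0.29 (adjusted p = 0.00433) in the separate-channel fit.

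Traf1, an adaptor that binds other TRAF proteins and the BIRC ubiquitin ligases, was selected on this comparison. Its level was 7.19, 7.25, 7.25, 7.54, 7.92 and 7.98 in the WT mice and 8.65, 8.80, 9.06, 9.58 and 9.61 in the WTC mice. No WTC mouse fell within the WT range. The log2 ratio was 1.61 ± 0.18 (3.06-fold) in the ratio fit and 1.61 ± 0.17 in the separate-channel fit. It was 1.49 ± 0.19 within slide 1 and ranged from 1.47 to 1.72 when arrays were left out 1 at a time.

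Traf2, the adaptor that recruits the BIRC ligases to the receptors, had a ratio of 0.37 ± 0.17 (adjusted p = 0.28; separate-channel fit 0.59 ± 0.18, adjusted p = 0.0247). Its other, dimmer probe gave -0.05 ± 0.10 (adjusted p = 0.812), so the probes of Traf2 disagreed. Birc3, the ubiquitin ligase, gave 0.40 ± 0.17 (adjusted p = 0.245) and, in the separate-channel fit, 0.38 ± 0.13 (adjusted p = 0.0444). The WT and WTC ranges overlapped for both genes. Birc3 ran from 6.37 to 6.74 in WT and from 6.48 to 7.25 in WTC, and Traf2 from 10.85 to 11.29 and from 11.13 to 12.65.

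Of the NF-kB genes, Relb, the subunit of the non-canonical branch, separated the groups without overlap. Its level ran from 9.39 to 9.63 in WT (median 9.51) and was 10.08, 10.09, 10.14, 10.32 and 10.48 in WTC. The spread within WTC (SD 0.17) was small beside the difference. The ratio was 0.49 ± 0.13 (adjusted p = 0.114), and 0.65 ± 0.12 (adjusted p = 0.00123) in the separate-channel fit; its second probe gave 0.35 ± 0.10 (adjusted p = 0.13). Nfkb1, the precursor of the p50 subunit, had the smallest ratio of the 10, 0.30 ± 0.11 (adjusted p = 0.19), and 0.26 ± 0.09 on its other probe. Nfkbia, which holds NF-kB in the cytoplasm and whose promoter holds the kappaB match shown above, gave 0.35 ± 0.20 (adjusted p = 0.377) and, in the separate-channel fit, 0.54 ± 0.17 (adjusted p = 0.0267). The ranges of both overlapped between WT and WTC.

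Counted over mice, 3 of the 8 (Tnfrsf1a, Tnfrsf1b and Relb) had every WTC mouse above every WT mouse; of all features 9.23% did. With a slide term added to the separate-channel fit, 5 of the 8 rose (all 3 receptors, Nfkb1 and Relb), against 9.23% of all features. Within slide 1 alone the ratios were 1.57 ± 0.28 for Tnfrsf1a (adjusted p = 0.0399), 0.92 ± 0.17 for Tnfrsf1b (adjusted p = 0.0397) and 0.76 ± 0.33 for Tnfrsf12a (adjusted p = 0.219), where 5.52% of all features passed upward. Slide 1 held only 2 WTC mice, and this fit leaves 2 residual degrees of freedom. Without arrays I, J and K, whose labels conflict, Tnfrsf1a (1.85 ± 0.31, adjusted p = 0.0244), Tnfrsf1b (1.05 ± 0.21, adjusted p = 0.0396) and Relb (0.60 ± 0.11, adjusted p = 0.034) passed, as did 5.21% of all features in that direction.

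**Figure D1:**
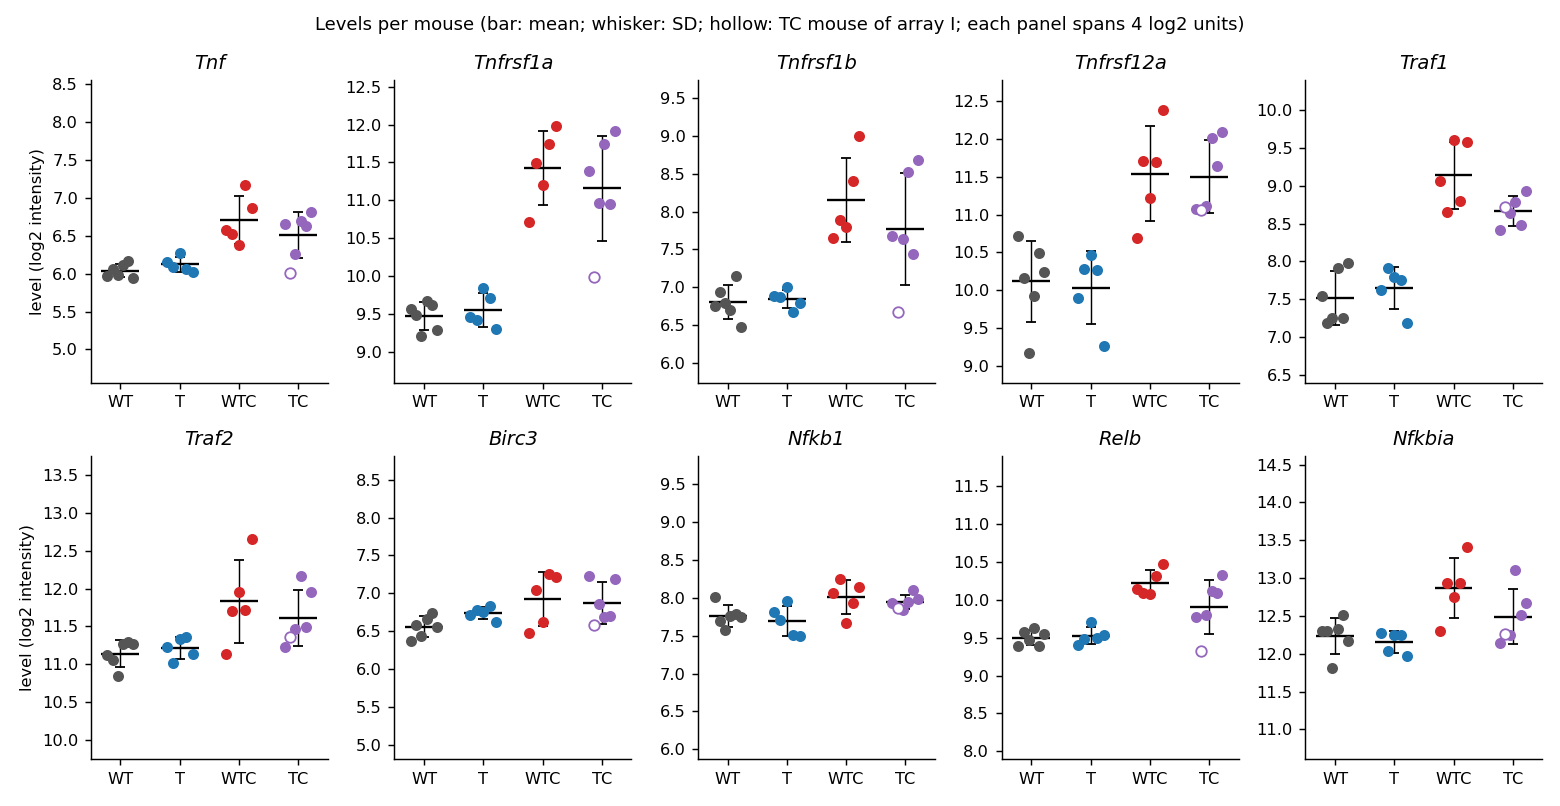
Log2 level (y axis, log2 intensity) of each of the 10 genes in every mouse of the groups WT (n = 6), T (n = 5), WTC (n = 5) and TC (n = 6); horizontal bars are means, whiskers are SD, and the hollow point is the TC mouse of array I. Tnfrsf1a and Traf1 lie higher in every lesioned mouse than in any intact mouse, and the hollow point sits at or just below the T level for Tnf, Tnfrsf1b and Relb.

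Genes of other cell types moved with this comparison. Among markers that intact mice alone carried past the filter, 5 of 5 for monocytes and macrophages rose in the separate-channel fit, as did 6 of 7 microglial, 2 of 2 neutrophil, 6 of 8 astrocyte, 5 of 5 dividing-cell, 0 of 3 T cell and 1 of 1 B cell markers. Of all features 14.3% rose in that fit. The mean log2 level over the monocyte and macrophage list ran from 8.30 to 8.67 in WT and from 10.22 to 11.64 in WTC. The microglial list ran from 11.22 to 11.85 and from 12.47 to 13.21, and the neutrophil list from 6.17 to 6.67 and from 8.12 to 9.43. Unlike the counts, these list means hold Ccr2, Msr1 and Mmp8, which only lesioned mice carried past the filter. Such genes had to be higher in lesioned mice, so part of the gap in the monocyte and neutrophil lists was set by the filter. The scavenger receptor gene Msr1 was well above background in 0 of 6 WT and 5 of 5 WTC mice, the monocyte receptor gene Ccr2 in 1 of 6 and 5 of 5, and the neutrophil collagenase gene Mmp8 in 0 of 6 and 5 of 5. Ms4a1 and Pax5, which define B cells, were well above background in none of the 22 mice. The choroid plexus and ependyma list ran from 8.10 to 12.80 in WT and from 9.52 to 12.92 in WTC; all 6 of its genes had positive ratios (median 2.29), and 1 of them, Foxj1, rose in the separate-channel fit. The striatal neuron list ran from 9.22 to 12.72 and from 8.76 to 12.15; all 7 of its genes had negative ratios (median -0.74), and 1, Drd2, fell. The part of these cells in the members' ratios was not tested, and in bulk tissue more cells of a type and more RNA per cell cannot be told apart.

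The second comparison asked how the same lesion stood in transgenic cortex. All 10 members again had positive ratios in TC minus T, with a median of 0.28 over the 8 without Traf1 and Tnf against 0.0050 over all features. Tnf is again left out of the counts, which cover the other 9. Tnfrsf12a, Tnfrsf1a and Traf1 were 2.53-fold, 2.42-fold and 2.16-fold higher in TC. In the ratio fit no member passed, and 0% of all features passed upward. An unadjusted p under 0.05 was found for 4 members (3 of 8 without Traf1) and for 11.9% of all features. In the separate-channel fit Tnfrsf1a, Tnfrsf12a and Traf1 rose, 3 of 9 (2 of 8 without Traf1) against 4.71% of all features.

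Tnfrsf1a was 9.30, 9.41, 9.46, 9.71 and 9.85 in T and ran from 9.99 to 11.91 in TC (median 11.18). The lowest TC value, that of array I, was just above the highest T value. The ratio was 1.27 ± 0.34 (adjusted p = 0.286), and 1.52 ± 0.26 (adjusted p = 0.00273) in the separate-channel fit. Tnfrsf12a was 9.26, 9.90, 10.27, 10.28 and 10.47 in T and ran from 11.06 to 12.10 in TC (median 11.38). All TC mice lay above all T mice. Its ratio was 1.34 ± 0.32 (adjusted p = 0.27), and 1.46 ± 0.29 (adjusted p = 0.00692) in the separate-channel fit.

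Traf1 was not chosen on T or TC mice. Both fits link all arrays, though, so the WT and WTC mice on which it was chosen enter this estimate. Its p-values here are therefore not fully independent of the choice. The Traf1 level was 7.19, 7.62, 7.75, 7.79 and 7.91 in T and 8.41, 8.48, 8.63, 8.72, 8.79 and 8.93 in TC. The TC mice formed a narrow band (SD 0.20) wholly above the T mice. The ratio was 1.11 ± 0.18 (adjusted p = 0.213), and 1.05 ± 0.17 (adjusted p = 0.00186) in the separate-channel fit. Within slide 2 it was 1.21 ± 0.14 (adjusted p = 0.576, with 2 residual degrees of freedom). When arrays were left out 1 at a time, Traf1 passed in 1 of 11 ratio fits, that without array E (1.27, adjusted p = 0.0115). Array E held the T mouse with the highest Traf1 level, 7.91, so leaving it out raises the ratio by construction. Across these fits the ratio ran from 0.94 to 1.27, with adjusted p-values up to 0.717.

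The other members had smaller ratios. Tnfrsf1b gave 0.51 ± 0.28 (adjusted p = 0.494) and Nfkb1 0.34 ± 0.11 (adjusted p = 0.327). The mean level of Tnf was 6.51 in TC and 6.12 in T, where no mouse was well above background. Traf2, Nfkbia, Relb and Birc3 lay between 0.12 and 0.22, with adjusted p-values from 0.588 to 0.826. The second probe of Relb gave 0.34 ± 0.10 (adjusted p = 0.309). In 3 members (Tnfrsf1a, Tnfrsf12a and Traf1) every TC mouse was above every T mouse; 2.08% of all features had this.

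The TC mouse of array I differed in which members it raised. Its Traf1 level, 8.72, lay within the 8.41 to 8.93 of the other 5 TC mice, and its Tnfrsf12a level, 11.06, lay just below their lowest, 11.08. Its levels of Tnf (6.01), Tnfrsf1b (6.67), Relb (9.32) and Birc3 (6.58) were instead below the lowest T mouse. Its Tnfrsf1a level, 9.99, fell between the T mice and the lowest other TC mouse, at 10.95. The same mouse had a mean log2 level of 8.59 over the monocyte and macrophage markers, where the other TC mice ran from 9.81 to 11.61 and the T mice from 8.30 to 8.80. Its microglial list stood at 11.29, where the others ran from 12.30 to 13.20, and its dividing-cell list at 6.63 against 8.23 to 10.03. Its astrocyte list, at 12.52, was just below the 12.73 to 13.32 of the other TC mice and above the 11.67 to 11.95 of T. The monocyte and macrophage list holds Ccr2 and Msr1, and the dividing-cell list Cdk1, which only lesioned mice carried past the filter. The part of these cells in the members' levels was not tested.

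Without that mouse, 5 of the 9 members (4 of 8 without Traf1) rose in the separate-channel fit of TC minus T, against 8.06% of all features. They were Tnfrsf1a (1.83 ± 0.21, adjusted p = 2.26e-05), Tnfrsf1b (1.07 ± 0.23, adjusted p = 0.00518), Tnfrsf12a (1.60 ± 0.30, adjusted p = 0.00157), Traf1 (1.04 ± 0.19, adjusted p = 0.00101) and Relb (0.47 ± 0.10, adjusted p = 0.00283). The ratio of Traf1 hardly moved, while that of Tnfrsf1b grew from 0.81. Without that mouse 5 members had every TC mouse above every T mouse, Tnfrsf1b and Relb being added, which 7.01% of all features had. The mouse had the lowest TC levels of Tnfrsf1a, Tnfrsf1b, Tnfrsf12a and Relb. Leaving it out therefore raises their TC means by construction, and the larger counts are no independent evidence. With a slide term and all mice, 4 members rose (Tnfrsf1a, Tnfrsf12a, Traf1 and Nfkb1), or 3 of 8 without Traf1, against 2.65% of all features.

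The array labels also bear on this comparison. With groups read from the channel labels of arrays I, J and K, the ratio fit gave TC minus T ratios of 0.84 ± 0.53 for Traf1, 0.86 ± 0.74 for Tnfrsf1a and 0.63 ± 0.78 for Tnfrsf12a, and negative ones for Tnfrsf1b, Traf2 and Nfkbia. Without these arrays the ratios were 1.04 ± 0.29 for Traf1 (adjusted p = 0.367), 1.63 ± 0.46 for Tnfrsf1a (adjusted p = 0.376) and 1.25 ± 0.55 for Tnfrsf12a (adjusted p = 0.671).

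**Figure D2:**
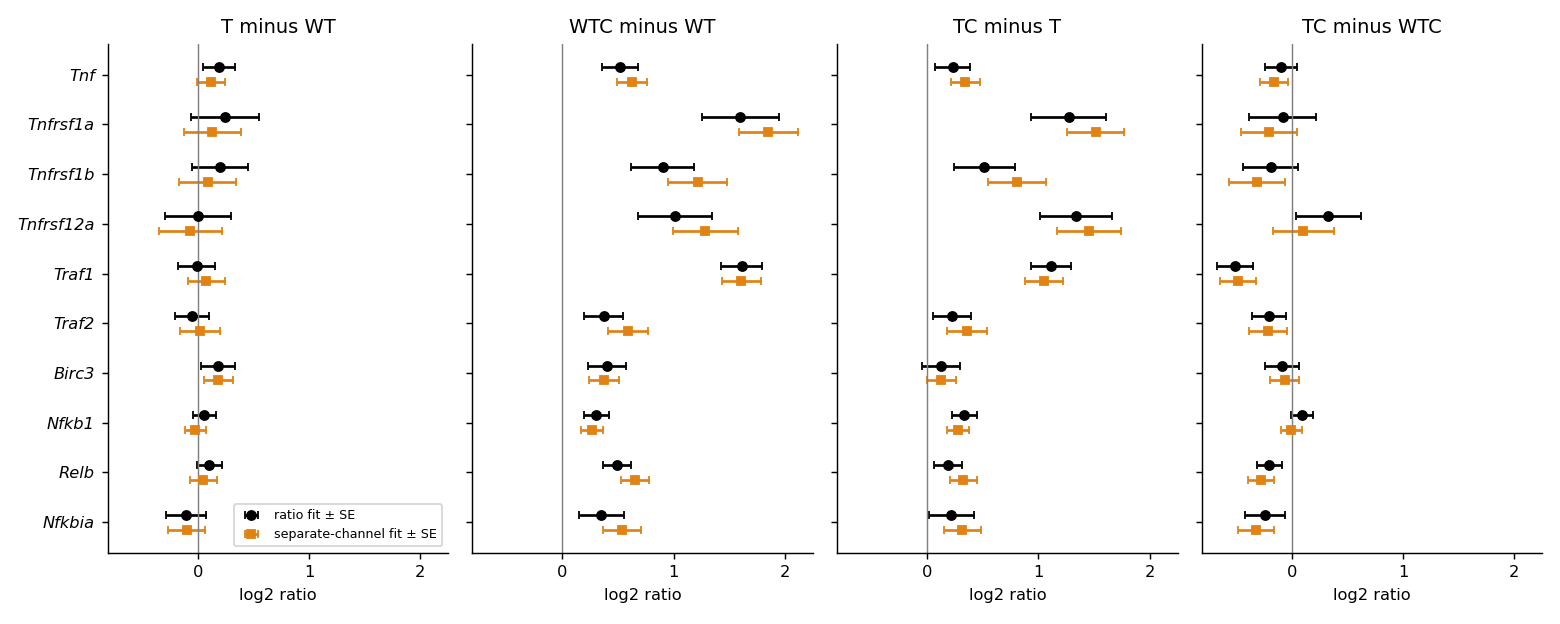
Log2 ratio (x axis) ± SE of each gene (y axis) in 4 comparisons, from the ratio fit (black circles) and the separate-channel fit (orange squares), over 22 mice on 11 arrays. All 10 genes lie right of 0 in both lesion comparisons (the Tnf signal in WT and T was not well above background). Most of them lie near 0 in T minus WT. Traf1 lies lowest in TC minus WTC, at -0.51, a comparison that uses the WTC mice on which it was chosen.

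Markers of other cells moved in this comparison too. Among markers that intact mice alone carried past the filter, 3 of 5 monocyte and macrophage, 4 of 7 microglial, 0 of 2 neutrophil, 5 of 8 astrocyte and 5 of 5 dividing-cell markers rose in the separate-channel fit, where 4.71% of all features rose. Without the TC mouse of array I, which was the lowest TC mouse on both lists, 4 of 5 monocyte and macrophage and 6 of 7 microglial markers did, and the share of all features was 8.06%. The mean level over the cortical neuron markers was 8.82 in the TC mouse of array I and ran from 10.74 to 11.82 in the other TC mice and from 11.49 to 12.36 in T. The striatal neuron list ran from 9.15 to 11.89 in T and from 8.93 to 11.49 in TC, with negative ratios for all 7 genes (median -1.49). The choroid plexus and ependyma list ran from 8.45 to 10.18 in T and from 7.95 to 12.78 in TC, with positive ratios for all 6 (median 0.87). No gene of either list passed in the separate-channel fit. The part of these cells was not tested.

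The transgene alone was compared in intact cortex. Tnf was not well above background in either group. Traf1 was chosen on these WT mice, so both Tnf and Traf1 are left out of the counts. The T minus WT log2 ratios of the other 8 ran from -0.11 to 0.25, and none of them passed in either fit. In the ratio fit 0% of all features passed in either direction and 0 of the 8 members had an unadjusted p under 0.05. In the separate-channel fit 0% of features passed as well. Traf1 gave -0.01 ± 0.17, with a 95% interval from -0.38 to 0.36, a value that is not independent of its choice. The interval of Tnfrsf1a ran from -0.45 to 0.94, and that of Relb from -0.15 to 0.36. All 7 striatal neuron genes had negative ratios in this comparison (median -1.11), as had all 6 choroid plexus and ependyma genes (median -0.87). Of these genes 0 passed in the separate-channel fit, and their part was not tested.

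Both lesioned groups were then compared with each other. Traf1 and Tnf are left out of the count of signs. In TC minus WTC 2 of the other 8 members had positive ratios, as did 44.4% of all features. The median of the 8 was -0.14 against -0.02 over all features, and none of the 9 members other than Traf1 passed. No feature passed in the ratio fit (0%), and 0.142% did in the separate-channel fit, in either direction. Of the 9 members other than Traf1, 0 had an unadjusted p under 0.05 in the former (14.8% of all features did) and 1, Relb, in the latter (16.7%). Traf1 had the most negative ratio, -0.51 ± 0.16 (0.70-fold), and -0.48 ± 0.17 in the separate-channel fit. This comparison uses the WTC mice on which Traf1 was chosen, so its value is given without a test and its direction is no independent evidence. The levels overlapped: 8.41 to 8.93 in TC against 8.65 to 9.61 in WTC. No member had every TC mouse below every WTC mouse, which 0.235% of all features had.

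Among the other members, Nfkbia gave -0.24 ± 0.18 (adjusted p = 0.559), Relb -0.20 ± 0.11 (adjusted p = 0.437) and Traf2 -0.20 ± 0.15 (adjusted p = 0.567). The second probe of Relb gave -0.0039 ± 0.09 (adjusted p = 0.988). Only Tnfrsf12a (0.33 ± 0.29, 95% interval -0.33 to 0.98) and Nfkb1 (0.09 ± 0.10, adjusted p = 0.697) were positive in the ratio fit. Tnfrsf1a gave -0.08 ± 0.30, with an interval from -0.76 to 0.60. All 3 arrays that paired a TC with a WTC mouse had a lower Traf1 in the TC mouse, with log2 ratios of -0.33, -0.64 and -0.81 after removal of the dye effect. Their WTC mice are among those on which Traf1 was chosen, so this direction is no independent evidence either. Tnfrsf1b, which was not chosen on these mice, stood at 0.75, -0.31 and -0.98 on the 3 arrays. Without array L, the ratios of Tnf (0.08), Tnfrsf1a (0.21), Tnfrsf1b (0.13) and Birc3 (0.09) turned positive, and the median over all 10 members was 0.069. The ratio of Traf1 was then -0.58, with the same limit. In this comparison 0 of 7 monocyte and macrophage, 0 of 7 microglial and 0 of 8 astrocyte markers passed in the separate-channel fit, where 0.142% of all features did. In the ratio fit 0 of 7 monocyte and macrophage markers had a positive ratio (median -0.36). The same held for 0 of 8 microglial (-0.43), 0 of 4 neutrophil (-0.53), 0 of 6 dividing-cell (-0.59) and 2 of 8 astrocyte markers (-0.19). The marker counts of this comparison hold Ccr2, Msr1, Mmp8 and Cdk1, which only lesioned mice carried past the filter. The choroid plexus and ependyma list ran from 9.52 to 12.92 in WTC and from 7.95 to 12.78 in TC, with negative ratios for all 6 genes (median -2.27). The striatal neuron list ran from 8.76 to 12.15 in WTC and from 8.93 to 11.49 in TC, with negative ratios for all 7 (median -1.91). None of these genes passed in the separate-channel fit, and their part was not tested.

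The lesion effects of the genotypes were set against each other as a difference, TC minus T less WTC minus WT. Without Traf1 and Tnf, this difference was positive for 2 of the other 8 members in the ratio fit, as it was for 45.4% of all features. In either fit 0 of the 9 members other than Traf1 passed. The share of all features was 0% in the ratio fit and 0% in the separate-channel fit, in either direction. The smallest unadjusted p of the 9 was 0.0646 in the ratio fit and 0.0555 in the separate-channel fit, both of Relb, with differences of -0.31 ± 0.15 and -0.33 ± 0.16. The second probe of Relb gave a difference of -0.0083 in the ratio fit, so the probes of Relb did not share this value. For Tnfrsf1a the difference was -0.33 ± 0.39 and for Tnfrsf12a 0.33 ± 0.38. For Traf1, chosen on one side of it, the difference was -0.50 ± 0.21 and is given without a test.

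The ratios of single arrays show how the dyes entered. The probe of Tnfrsf12a read lower in red than in green by 0.97 log2 units and that of Traf1 by 0.51; in the other members this effect was between 0.05 and 0.30. As measured, array A gave Tnfrsf12a a WTC minus WT ratio of -1.02 and array B, with the dyes turned, 2.53. After removal of the dye effect they stood at -0.05 and 1.56. The corresponding values of Traf1 were 0.999 and 1.97 as measured and 1.51 and 1.46 after removal. In a fit without the dye term the WTC minus WT ratio of Traf1 was 1.42 ± 0.33.

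**Figure D3:**
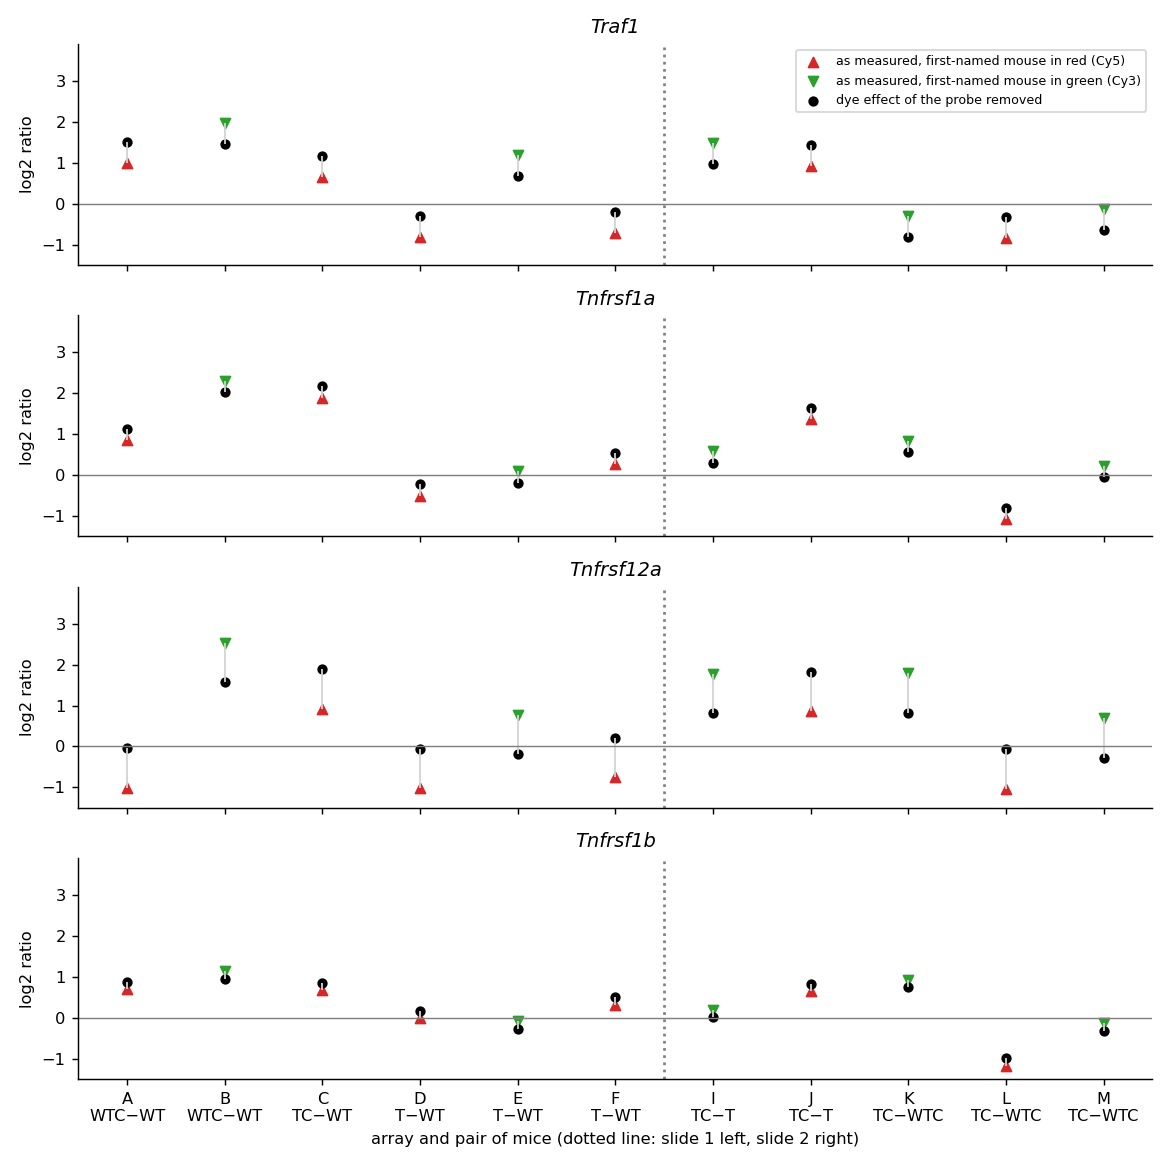
Log2 ratio (y axis) of Traf1, Tnfrsf1a, Tnfrsf12a and Tnfrsf1b on each of the 11 arrays (x axis, with the pair of mice), as measured with the first-named mouse in red (upward triangles) or green (downward triangles) and after removal of the probe's dye effect (black circles). Traf1 is near 1.5 on both WTC minus WT arrays once the dye effect is removed and below 0 on all 3 TC minus WTC arrays. It was chosen on the WTC mice of these arrays, so neither is independent evidence. No error is drawn, since each array is 1 pair of mice.

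The rest of the pathway was read from 5 lists. In the ratio fit none of their genes passed in either lesion comparison; the separate-channel counts are to be read against 14.3% of all features rising and 12.2% falling in WTC minus WT, and 4.71% rising and 2.65% falling in TC minus T. The counts leave out genes that only lesioned mice carried past the filter on dim probes, and the medians cover all measured genes. Ratios and adjusted p-values of single genes of the 5 lists are those of the separate-channel fit, and the medians are those of the ratio fit. Of 9 ligands of the TNF superfamily 2 rose in WTC minus WT and 1 in TC minus T, with ratio-fit medians of 0.09 and 0.07 over 11; Fasl and Tnfsf8 were left out. Tnfsf9, which encodes the ligand of 4-1BB, was the 1 in TC minus T, at 0.43 ± 0.13 (adjusted p = 0.0475), and rose by 0.64 ± 0.13 (adjusted p = 0.0021) in WTC minus WT. Ltb, a lymphotoxin subunit, rose by 0.53 ± 0.18 (adjusted p = 0.0382) in WTC minus WT. Cd70 gave 0.45 ± 0.31 (adjusted p = 0.282), and Tnfsf13b, the B cell survival factor, gave -0.04 ± 0.18 in WTC minus WT and 0.55 ± 0.18 (adjusted p = 0.0686) in TC minus T. Tnfsf4, Cd40lg, Tnfsf11, Tnfsf14 and Tnfsf18 were too dim to be tested.

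Of 19 other TNF receptors (Tnfrsf18 left out) 5 rose and 1 fell in WTC minus WT, and 5 rose in TC minus T. Ltbr, the lymphotoxin beta receptor that feeds the non-canonical branch, rose by 1.48 ± 0.25 (adjusted p = 6e-04) and 1.18 ± 0.24 (adjusted p = 0.00946). The death receptor genes Fas and Tnfrsf10b rose by 1.26 ± 0.21 and 1.07 ± 0.20 in WTC minus WT and by 0.73 ± 0.21 and 0.66 ± 0.20 in TC minus T. Cd40 rose in TC minus T, by 0.37 ± 0.11 (adjusted p = 0.0494), and gave 0.15 ± 0.11 in WTC minus WT. Relt fell in WTC minus WT, by 0.85 ± 0.20 (adjusted p = 0.00506), and gave 0.11 ± 0.19 in TC minus T.

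Of 26 adaptors and ubiquitin enzymes 9 rose and 3 fell in WTC minus WT, and 4 rose in TC minus T. The death-signalling genes Casp8 (1.58 ± 0.29 and 1.14 ± 0.29), Ripk3 (1.31 ± 0.27 and 1.10 ± 0.27) and Fadd (0.59 ± 0.12 and 0.41 ± 0.12) rose in both. Traf4 rose by 0.84 ± 0.15 in WTC minus WT (adjusted p = 0.000928) and gave 0.40 ± 0.15 (adjusted p = 0.105) in TC minus T. Birc2, the close relative of Birc3, fell in WTC minus WT, by 0.36 ± 0.09 (adjusted p = 0.0083), where Birc3 was higher. Tradd, the adaptor of the death-domain receptor, gave 0.29 ± 0.12 (adjusted p = 0.0781) and 0.33 ± 0.12 (adjusted p = 0.0894).

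Of 18 IKK kinases, other NF-kB subunits and inhibitors (Ikbke left out) 7 rose and 3 fell in WTC minus WT, and 4 rose in TC minus T. Bcl3, a nuclear IkB protein that binds p50 and p52 dimers, had the largest ratio. In the separate-channel fit it was 3.39 ± 0.38 (adjusted p = 3.36e-05) and 2.37 ± 0.37 (adjusted p = 0.00158). Nfkb2, the precursor of the p52 subunit, rose by 1.12 ± 0.16 (adjusted p = 0.000259) and 0.995 ± 0.16 (adjusted p = 0.00184). Commd1 rose by 0.28 ± 0.07 in both comparisons, and the kinase gene Map3k8 rose by 0.41 ± 0.10 in WTC minus WT (adjusted p = 0.00896) and gave 0.25 ± 0.10 (adjusted p = 0.139) in TC minus T.

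The list of 25 textbook NF-kB target genes had the largest medians, 0.69 in WTC minus WT and 0.23 in TC minus T in the ratio fit. Without Cxcl1, Il6, Saa3 and Ptx3, which only lesioned mice carried past the filter, 11 of 21 rose and 1 fell in WTC minus WT, and 4 rose and 1 fell in TC minus T. Without the TC mouse of array I, 9 rose in TC minus T, where 8.06% of all features rose. In the separate-channel fit the complement gene C3 rose by 4.03 ± 0.42 (adjusted p = 1.89e-05) and 1.73 ± 0.41 (adjusted p = 0.0181). The iron-binding acute-phase gene Lcn2 rose by 4.21 ± 0.83 (adjusted p = 0.00176) and gave 1.97 ± 0.82 (adjusted p = 0.141). Csf1, which supports microglia, rose by 1.40 ± 0.19 and 0.86 ± 0.19. Cx3cl1, the neuronal chemokine, fell by 0.46 ± 0.16 (adjusted p = 0.0446) and, in TC minus T, by 0.78 ± 0.16 (adjusted p = 0.00944). With a slide term 9 rose in WTC minus WT and 2 in TC minus T, where 9.23% and 2.65% of all features rose.

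**Figure D4:**
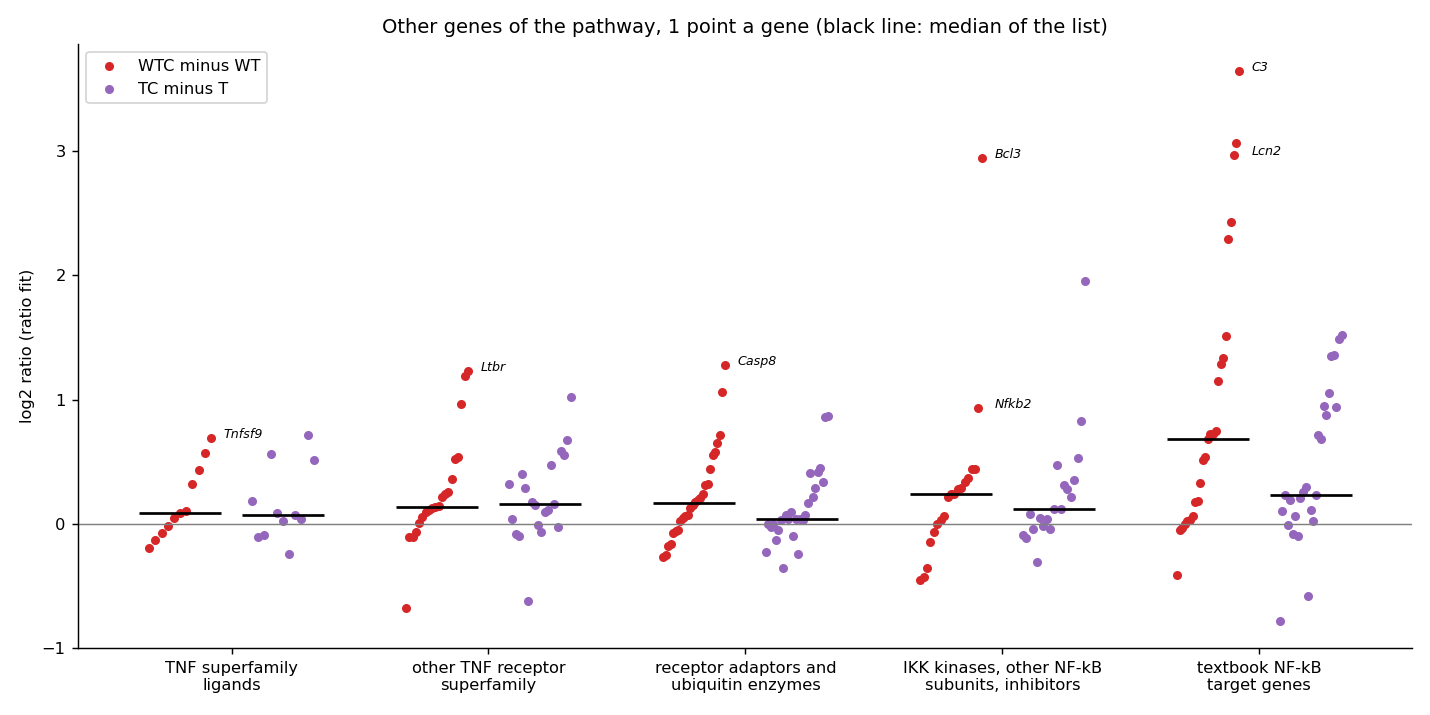
Log2 ratio from the ratio fit (y axis) of every measured gene of 5 pathway lists (x axis; 11, 20, 26, 19 and 25 genes), in WTC minus WT (red) and TC minus T (purple); black lines are list medians. The NF-kB target genes reach highest and have the largest median, 0.69 in WTC minus WT, and Bcl3 stands above the other genes of its list. The median includes 4 genes that only lesioned mice carried past the filter.

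The genes whose levels followed Traf1 most closely over the 22 mice, among 16012 with a symbol, were Cdk5rap2, which encodes a centrosomal protein, with a Pearson correlation of 0.93, the kinase gene Rps6ka1 (0.93), Lgi4, which encodes a secreted glial protein (0.93), the RNA-binding protein gene Zfp36l1 (0.92) and Unc13d, which acts in granule release (0.92). The mice fall into lesioned and intact ones, and the points share arrays in pairs. Within the 11 lesioned mice the same 5 correlations ran from 0.62 to 0.77, and within the 11 intact mice from 0.51 to 0.60. Their WTC minus WT ratios were between 1.002 and 1.15 and their TC minus T ratios between 0.51 and 1.08 in the ratio fit. In the TC mouse of array I, Cdk5rap2 (10.90) and Rps6ka1 (12.87) lay within the range of the other TC mice, Lgi4 (13.47) and Unc13d (8.19) above it and Zfp36l1 (10.85) below it. Of the other members, Tnfrsf1a correlated with Traf1 at 0.85, Tnfrsf12a at 0.81 and Relb at 0.80, and Birc3 at 0.45, the lowest. Many genes outside the members followed Traf1 more closely than Tnfrsf1a did. The members' values run over all 22 mice, among them the WT and WTC mice on which Traf1 was chosen. Any gene that differed between lesioned and intact mice would correlate with Traf1 in this way. No values within lesioned or within intact mice are given for the members, and shared regulation was not tested.

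The authors' deposited table gave log ratios for the same genes. In the authors' deposited table all 10 members were positive in WTC minus WT, from 0.23 for Nfkb1 to 2.06 for Tnfrsf1a, with 1.78 for Traf1. In the authors' deposited table TC minus T was 1.46 for Tnfrsf1a (adjusted p from 0.00213 to 0.00394 over its 10 spots) and 1.16 for Traf1 (adjusted p = 0.0423). In the authors' deposited table the TC minus WTC log ratio was negative for all 10 members, with the smallest adjusted p-values for Nfkbia (-0.59, adjusted p = 0.0161) and Traf2 (-0.50, adjusted p = 0.0358). The authors' deposited table thus had Nfkbia and Traf2 past the threshold where neither fit here did, and its value for Traf1 was -0.65.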

How the data were processed

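The authors deposited Agilent Feature Extraction 10.7.3.1 scanner output with linear intensity values, and a table of log2 ratios and adjusted p-values made with limma, per the submitters' processing notes; its log base was taken from limma's usual output, and its WTC minus WT p-value column was not read because some cells exceeded 1. Scanner LogRatio values, log10 per the file headers, served as an alternative.

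From median signals, background was corrected by normexp (offset 50) and ratios normalized by loess in limma 3.58.1 (R 4.3.3). A probe had to be well above background in 5 or more of the 22 channels; the brightest was used per gene. Counts of members and list genes leave out those well above background in under 5 of the 11 intact mice, a rule chosen after seeing the data. Array ratios were fitted for T, WTC and TC against WT with a dye term (lmFit, eBayes). The separate-channel fit followed Aquantile normalization (intraspot correlation 0.32, 25965 features). A mouse is the replicate. The ratio fit was tested on simulated data, but no result of that test is given or relied on here.

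Members and gene lists were chosen with earlier results of these data known. Named from the lists were up to 4 genes with the smallest p in WTC minus WT and up to 2 in TC minus T, and the 5 genes most correlated with Traf1. Alternatives covered background correction, normalization, filters, probe choice, dye and slide terms, labels and leaving out arrays; slide subsets, the slide term in the separate-channel fit and other probes were added after seeing the data.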

Additional observations from a re-analysis of the deposited data

How the results depend on the processing

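Limits: the 11 arrays limit the precision of every value, Tnf is dim, and WT mice were on 1 slide. Of 1335 member values under 28 alternatives, 62 turned sign. Counts and medians of members here cover all 10, Traf1 (chosen on WTC minus WT) and Tnf included, and support nothing about them. In WTC minus WT, where 6 features and 1 member were counted, plain background subtraction, median centring and the channel labels of arrays I, J and K each left 0 features and 0 members; the scanner's LogRatio, no filter on dim probes and the mean over a gene's probes left 1 feature and 0 members. No dye term and a trended robust prior left 0 members. Requiring all 22 channels gave 50 features. Features and members numbered 6886 and 9 in the separate-channel fit, 8378 and 10 in the same fit less the TC mouse of array I, 3433 and 7 with a slide term, 1764 and 4 without arrays I, J and K, and 2160 and 3 within slide 1. In TC minus T (0 and 0) they numbered 1909 and 3, 3274 and 6, and 900 and 4 in those first 3 settings, and in TC minus WTC features numbered 37, 46 and 91, with 1 by subtraction and 3 by the channel labels. The difference of lesion effects had 2 features without the TC mouse of array I. The members' median moved to 0.93 (subtraction) and 0.83 (LogRatio) in WTC minus WT, and to 0.67 by either and 0.47 by the separate-channel fit less the TC mouse of array I in TC minus T. Reversed were Traf2 on its other probe (-0.0535, -0.0416 and 0.11 in WTC minus WT, TC minus T and TC minus WTC), Tnfrsf1b (-0.15), Traf2 (-0.0602) and Nfkbia (-0.16) in TC minus T by the channel labels, and Traf2 (0.0163) and Relb (0.0028) in TC minus WTC by median centring. Leaving out 1 array at a time gave 0 to 1583 features (most without array K) and 0 to 5 members in WTC minus WT, 0 to 6 features (most without array I) and 0 to 1 member in TC minus T, and 0 to 2 features in TC minus WTC, whose median ran from -0.30 to 0.0686; the median of the difference of lesion effects ran from -0.34 to -0.0943. The causes were not tested. Both fits use the pairing of mice on an array; no fit with a replicate block was made, since the labels give no shared replicate numbers.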
